A study of Mus musculus with 4 samples.

Results

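Bone morphogenetic protein (BMP) receptors and antagonists were examined in CD51+;CD200+ cells, the skeletal stem/progenitor population sorted by FACS from cranial sutures and growth plate. The 10 genes were chosen by symbol from a list of the family, with earlier results of these data known. They were the type I receptors *Bmpr1a*, *Bmpr1b* and *Acvr1*, the type II receptor *Bmpr2*, the pseudoreceptor *Bambi*, and the secreted antagonists *Nog*, *Grem1*, *Chrd*, *Chrdl1* and *Fst*. All 10 were listed among the 23946 gene symbols of the series, and all 10 reached 1 FPKM (fragments scaled for transcript length in kilobases and for the number of fragments mapped) in at least 1 library. Bulk RNA-seq gave 1 library for each of 3 sutures, the coronal (COR), the sagittal (SAG) and the posterior frontal (PF), and 1 for the growth plate (GP) of the tibia as a site outside the skull. All mice were wild-type CD-1 animals at postnatal day 3, with no transgene or treatment in any group. The suture dissections took in the bone fronts, the mesenchyme between them, dura mater and periosteum. The cells came from a group of mice with 1 library per tissue, so no spread between animals can be given. The PF suture later fuses, and SAG and COR stay patent.

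BMP ligands signal by bringing type I and type II serine/threonine kinase receptors together, after which the type I receptor phosphorylates SMAD1, SMAD5 and SMAD9. Secreted antagonists bind the ligands in the matrix and keep them from the receptors, and BAMBI resembles a type I receptor but lacks the kinase domain. In bone, BMP signaling drives osteoblast and chondrocyte differentiation, and noggin is known for holding cranial sutures patent. Gremlin 1 marks a skeletal stem cell population of long bones, and follistatin binds activins as well as BMPs.

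Because the tissues have no replicate libraries, the differences carry no error and no test, and tissue and library cannot be told apart. Differences are given as log2(FPKM + 1), where low genes change by less than their FPKM does. They were counted at 3-fold or more, that is 1.58 in these units, beside the share of all 13998 genes tested (those reaching 1 FPKM in any library) that passed the same limit. In bulk RNA, fewer cells of a type and less RNA per cell cannot be told apart.

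The libraries differed in depth and in content. From the most frequent low value of FPKM multiplied by transcript length, taken as 1 fragment, the PF library held an estimated 43.7% of the fragments of SAG, while COR held 87.1% and GP 83.2%. The transcripts of the sorting antigens CD51 (*Itgav*) and CD200 (*Cd200*) were listed in every library, from 6.20 to 62.6 FPKM. Of the antigens used for negative selection, *Ptprc*, *Tek* and *Thy1* stayed below 1 FPKM in all 4 libraries, while *Enpep* (6C3) was from 1.39 to 7.05 FPKM and *Eng* (CD105) from 0.679 to 1.70 FPKM, both with their highest value in PF. Of 8 chondrocyte markers, 7 were at least 3-fold higher in SAG than in PF and 6 higher in GP than in PF, and their summed level was 137 (PF), 3740 (SAG), 157 (COR) and 2920 FPKM (GP). All 5 choroid plexus markers that reached 1 FPKM, *Ttr* and *Otx2* among them, were at least 3-fold higher in SAG than in every other library. PF had markers of other cells as well: 2 of 2 erythroid markers tested were at least 3-fold higher in PF than in SAG and in COR. Of 4 leukocyte and osteoclast markers tested, *Lyz2* and *Acp5* were at least 3-fold higher in PF than in SAG, and *Cd68* and *Lyz2* than in COR. Of 6 meningeal markers tested, 3 were at least 3-fold higher in PF than in SAG and 2 than in COR. In the other direction, 1 meningeal marker, *Ptgds*, was at least 3-fold higher in SAG (91.3 FPKM) than in PF (12.7 FPKM). The erythroid sum was 15.6 (PF), 1.93 (SAG), 1.81 (COR) and 1.85 FPKM (GP), and the leukocyte and osteoclast sum 653, 254, 512 and 611 FPKM, mostly *Ctsk*, with *Tyrobp* at 0 throughout. The bone matrix genes *Col1a1*, *Col3a1* and *Sparc* are listed at 0 in COR, and *Col1a2* in COR and GP, but none of the 10 genes was at 0 in any library.

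Upstream sequence is shown for 3 of the genes that differed between tissues and, beside them, for *Bmpr2*, a receptor that differed little. The promoter table of RefSeq (GRCm38.p6) held 6 of the 10 genes, and each window of 250 bases before the start was placed by exact match in the mm9 genome, the build of the FPKM files. *Grem1* is at chr2:113598806-113599055 on the minus strand, *Chrd* at chr16:20732950-20733199 on the plus strand, *Bmpr1b* at chr3:141645229-141645478 on the minus strand (the farthest upstream of its 3 listed starts), and *Bmpr2* at chr1:59820873-59821122 on the plus strand. None of these windows overlapped an annotated exon. The *Bmpr1b* window lies inside the annotated gene (141500100 to 141832389) and not at its annotated 5' end. Capitals mark matches of GGCGCC, a GC-rich motif described for BMP SMADs, and of TATAAA or its complement TTTATA.
Grem1: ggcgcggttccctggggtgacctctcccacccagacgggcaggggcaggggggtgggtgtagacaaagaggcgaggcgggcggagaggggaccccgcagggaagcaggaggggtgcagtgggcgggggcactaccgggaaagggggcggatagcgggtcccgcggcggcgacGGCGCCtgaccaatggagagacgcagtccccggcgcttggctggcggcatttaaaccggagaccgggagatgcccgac
Chrd: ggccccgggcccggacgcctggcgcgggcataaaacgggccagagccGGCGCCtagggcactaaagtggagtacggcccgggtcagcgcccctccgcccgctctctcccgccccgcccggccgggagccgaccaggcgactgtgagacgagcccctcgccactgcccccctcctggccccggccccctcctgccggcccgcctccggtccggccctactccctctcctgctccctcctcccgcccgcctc
Bmpr1b: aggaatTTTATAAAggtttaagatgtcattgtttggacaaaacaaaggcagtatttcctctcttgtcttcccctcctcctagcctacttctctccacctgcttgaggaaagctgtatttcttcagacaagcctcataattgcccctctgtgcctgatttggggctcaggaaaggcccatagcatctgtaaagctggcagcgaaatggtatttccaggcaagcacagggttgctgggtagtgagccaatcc
Bmpr2: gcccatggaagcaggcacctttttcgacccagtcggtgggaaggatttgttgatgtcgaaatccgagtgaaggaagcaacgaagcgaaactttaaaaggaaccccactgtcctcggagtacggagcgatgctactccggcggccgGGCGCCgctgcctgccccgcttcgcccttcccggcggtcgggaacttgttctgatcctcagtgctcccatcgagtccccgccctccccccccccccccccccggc

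The *Grem1*, *Chrd* and *Bmpr2* windows each held 1 match of GGCGCC, which reads the same on both strands and was present in 9.59% of 32851 promoter windows of the same length. The *Bmpr1b* window held none, and held 2 overlapping matches of TATAAA, one on each strand, a motif present in 12.4% of windows. The shorter SMAD-binding letters GTCT (AGAC on the other strand) were present in 82.9% of all windows, with a median of 2 matches, and occurred 4 times upstream of *Grem1*, 2 times upstream of *Bmpr1b*, 1 time upstream of *Chrd* and 0 times upstream of *Bmpr2*. The *Bmpr1b* window was also the poorest in G and C, at 46.8% with 1 CpG, compared with 72.0% and 24 CpG for *Grem1*, 78.0% and 28 for *Chrd*, and 64.0% and 22 for *Bmpr2*. Over all windows the medians were 52.4% and 6 CpG. The windows of the other listed *Bmpr1b* starts, not shown, had 56.4% and 52.8% G and C with 5 CpG each. They held no match of TATAAA, and 3 and 6 matches of GTCT. The same GGCGCC match thus stood upstream of *Grem1*, which had the widest distance between tissues of the 10, and of *Bmpr2*, and these letters are a description of the windows and not binding sites.

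From the lowest to the highest library, 5 of the 10 genes were at least 3-fold apart (*Bmpr1b*, *Grem1*, *Chrd*, *Chrdl1* and *Fst*), compared with 24.7% of all genes tested. These were 4 of the 5 secreted antagonists and 1 of the 4 receptors. After a loess correction for GC content the number was again 5, with *Nog* in place of *Bmpr1b*, beside 23.9% of the corrected genes. The median distance from the lowest to the highest library was 2.23 on the log2 scale for the antagonists and 0.81 for the receptors, compared with 1.01 over all genes tested. *Grem1* and *Fst* were the farthest apart, at 3.72 and 3.61, and 2.30% and 2.61% of all genes tested were at least as far apart. *Acvr1*, at 1.01, lay at the median of all genes tested. *Bmpr1a* and *Bmpr2* were the closest, each at 0.62, a distance reached or exceeded by 74.5% of all genes tested.

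**Figure D1:**
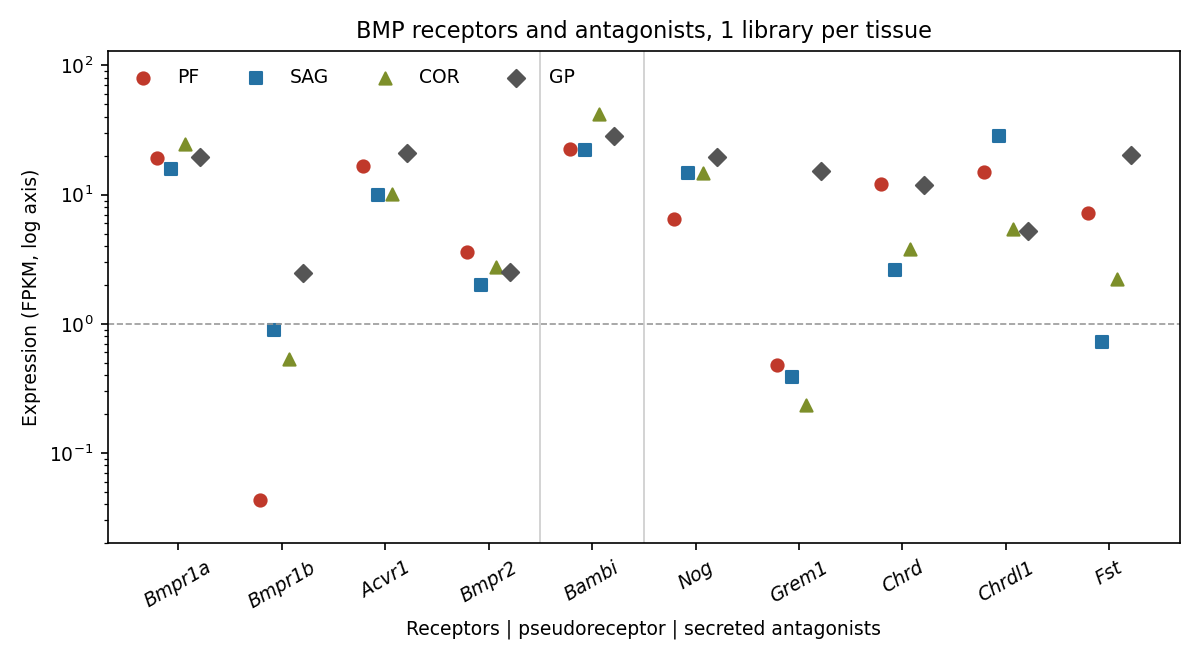
FPKM (log axis) of each of the 10 genes in the PF, SAG, COR and GP libraries, 1 point per library, with a dashed line at 1 FPKM. *Grem1* sits at 15.3 FPKM in GP and below 0.5 in the 3 sutures, while the points of *Bmpr1a*, *Bmpr2* and *Bambi* lie close together.

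**Figure D2:**
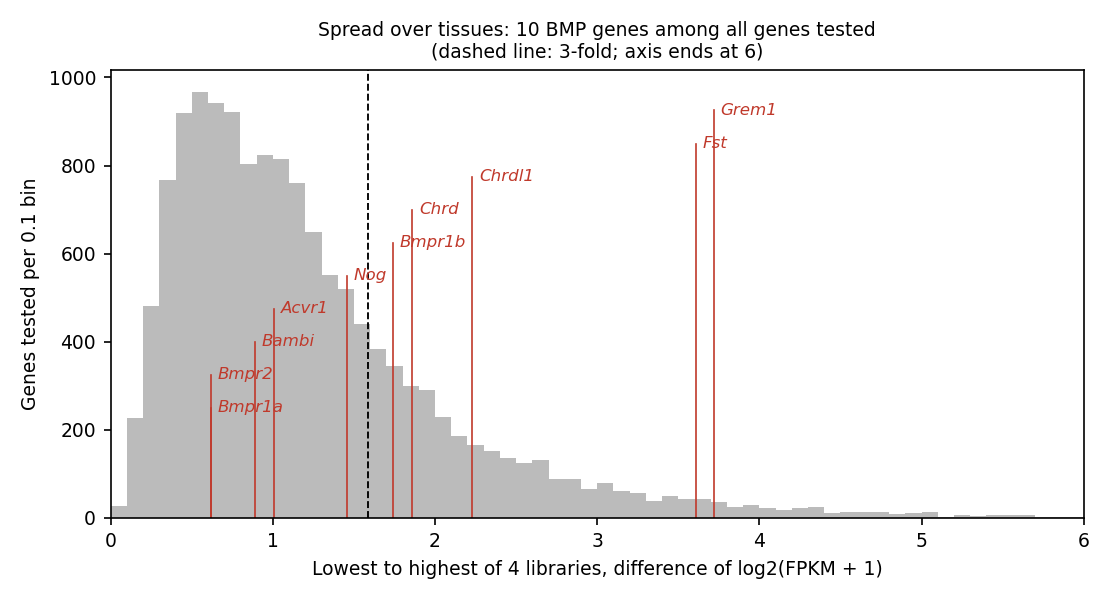
Distribution over all 13998 genes tested of the difference between the highest and the lowest of the 4 libraries in log2(FPKM + 1), with the 10 genes as red lines and the 3-fold limit dashed. *Grem1* (3.72) and *Fst* (3.61) lie in the right tail, and 5 of the 10 genes lie to the right of the limit.

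Among the type I receptors, *Bmpr1a* (mm9 chromosome 14, 35223920 to 35316527, minus strand) varied little between tissues. It was at 19.2 (PF), 15.7 (SAG), 24.6 (COR) and 19.4 FPKM (GP), in the upper part of each library, at percentile 72.2 to 77.9 of the genes listed above 0. The largest ratio was 1.54-fold, between COR and SAG. The transcript *Gm17110*, not analysed here, overlaps 424 bases of a *Bmpr1a* exon on the opposite strand, and the sources used here do not state that the counting used strand.

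*Acvr1* (chromosome 2, 58241055 to 58419568, minus strand), which encodes the type I receptor ALK2, was at 16.6 (PF), 9.95 (SAG), 10.2 (COR) and 21.1 FPKM (GP). PF and GP thus lay above SAG and COR. PF exceeded SAG by 0.68 and COR by 0.65 in log2 units, and none of the 6 comparisons reached 3-fold. The 0.33 by which GP exceeded PF became -0.12 when values were taken relative to *Gapdh*. SAG and COR differed by 0.03.

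*Bmpr1b* (chromosome 3, 141500100 to 141832389, minus strand), a type I receptor needed for cartilage formation in the limb, was the only receptor at least 3-fold apart. It was at 0.0433 (PF), 0.895 (SAG), 0.535 (COR) and 2.48 FPKM (GP), so that it reached 1 FPKM in GP alone. By the depth estimate, the PF value corresponds to about 3.93 fragments and the others to 97 to 430 fragments. GP exceeded PF by 1.74 on the log2 scale, COR by 1.18 and SAG by 0.88, and 8.92%, 6.50% and 19.7% of all genes tested were at least as far apart in the same comparisons. After the correction for GC content the GP vs PF ratio was 1.32, below the 3-fold limit. The chondrocyte markers were also higher in GP and SAG than in PF and COR, as given above, and their part in the level of *Bmpr1b* was not tested.

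The type II receptor *Bmpr2* (chromosome 1, 59821481 to 59927703, plus strand) was, after *Bmpr1b*, the least abundant of the receptors among the 10 genes. It was at 3.59 (PF), 1.99 (SAG), 2.74 (COR) and 2.53 FPKM (GP), with a largest ratio of 1.54-fold between PF and SAG. FPKM is scaled for transcript length. The summed level of *Bmpr1a* and *Acvr1* was 9.98 times that of *Bmpr2* in PF, 12.9 times in SAG, 12.7 times in COR and 16.0 times in GP. Other type II receptor genes are not in this ratio. *Acvr2a* was at 2.32 (PF), 4.23 (SAG), 3.25 (COR) and 3.40 FPKM (GP), and *Acvr2b* at 2.80, 6.57, 5.48 and 3.52 FPKM. Both were below *Bmpr2* in PF and above it in SAG, COR and GP. The pseudoreceptor *Bambi* (chromosome 18, 3507955 to 3516402, plus strand) was above *Bmpr1a* in each library, at 22.6 (PF), 22.2 (SAG), 42.1 (COR) and 28.4 FPKM (GP). Its level in COR exceeded that in SAG by 0.89 and that in PF by 0.87 on the log2 scale, and PF and SAG differed by 0.03. The summed level of 7 osteoblast markers was also highest in COR, at 3530 FPKM compared with 1080 in PF, 270 in SAG and 1300 in GP, with none at 0 in any library, and its part in the level of *Bambi* was not tested.

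The secreted antagonists differed in which tissue was highest. *Nog* (chromosome 11, 89161952 to 89163873, minus strand), which encodes noggin, was at 6.52 (PF), 14.6 (SAG), 14.6 (COR) and 19.7 FPKM (GP). PF was the lowest, by 1.05 on the log2 scale against SAG and against COR and by 1.46 against GP, and SAG and COR were at the same level. None of these ratios reached 3-fold, and 31.2% of all genes tested were at least as far apart between PF and SAG and 24.9% between PF and COR. After the correction for GC content, PF was lower than SAG by 1.61 and lower than GP by 1.89, both past 3-fold. The longest coding transcript of *Nog* has 58.2% G and C, compared with 41.0% to 48.7% in the other members apart from *Chrd*.

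*Grem1* (chromosome 2, 113586321 to 113598803, minus strand), which encodes gremlin 1, separated the growth plate from all sutures. It was at 15.3 FPKM in GP but at 0.482 (PF), 0.384 (SAG) and 0.234 FPKM (COR) in the sutures. The log2 ratios were 3.46 for GP vs PF, 3.55 for GP vs SAG and 3.72 for GP vs COR, and 0.964%, 1.19% and 0.479% of all genes tested were at least as far apart. By the depth estimate the suture values correspond to about 32.9 to 62 fragments per library and the GP value to 2050, and the sutures differed among themselves by at most 0.26. The plain FPKM ratio of GP to a suture was 31.7 to 65.2.

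*Chrd* (chromosome 16, 20733200 to 20742457, plus strand), which encodes chordin, was at 12.1 (PF), 2.61 (SAG), 3.77 (COR) and 11.8 FPKM (GP). PF and GP differed by 0.03 (GP was 0.47 higher after the GC correction), and both lay above the patent sutures. PF exceeded SAG by 1.86 and COR by 1.46, and GP exceeded SAG by 1.83 and COR by 1.43, of which the comparisons with SAG passed 3-fold. Some erythroid, leukocyte and meningeal markers were also higher in PF than in SAG and COR, as given above. Of 7 osteoblast markers, 3 were at least 3-fold higher in PF than in SAG and 0 at least 3-fold lower. Between PF and COR, 4 of them were at least 3-fold higher in COR and 0 in PF. The part of all these markers in the level of *Chrd* was not tested. After the correction for GC content PF exceeded SAG by 1.23, which is below the limit, and GP vs SAG remained above it. The longest coding *Chrd* transcript has 60.2% G and C, the highest of the 10. Up to 462 bases of a *Chrd* exon overlap *Thpo* on the opposite strand, and *Thpo* itself was at 0.622 FPKM or less in every library.

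*Chrdl1* (X chromosome, 139720217 to 139828805, minus strand), which encodes the chordin-like protein also called ventroptin, ran in another order. It was at 15.0 (PF), 28.4 (SAG), 5.38 (COR) and 5.24 FPKM (GP). SAG was the highest, with log2 ratios of -2.2 for COR vs SAG and -2.23 for GP vs SAG, or 4.60-fold and 4.71-fold, and 4.49% and 4.19% of all genes tested were at least as far apart. PF lay between, 1.33 above COR and 0.87 below SAG. The sum of 7 choroid plexus markers had the same order of libraries, with 480 (PF), 5340 (SAG), 147 (COR) and 10.8 FPKM (GP) and none listed at 0. This sum was mostly *Ttr*, at 465 (PF), 5100 (SAG), 141 (COR) and 9.74 FPKM (GP). *Kcne2*, *Kl* and *Slc4a5* were also highest in SAG but had another order in the rest. The part of these markers in the level of *Chrdl1* was not tested.

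*Fst* (chromosome 13, 115242470 to 115249159, minus strand), which encodes follistatin, was highest in GP and lowest in SAG. It was at 7.21 (PF), 0.724 (SAG), 2.21 (COR) and 20.1 FPKM (GP). GP exceeded SAG by 3.61, COR by 2.72 and PF by 1.36, and PF exceeded SAG by 2.25 and COR by 1.36. The comparisons of GP with SAG and COR and of PF with SAG passed 3-fold, and 1.08%, 1.22% and 6.04% of all genes tested were at least as far apart. By the depth estimate the SAG value rests on about 65.8 fragments. Of 6 markers of tendon and fibrous mesenchyme, 3 were at least 3-fold higher in GP than in SAG and 2 higher in GP than in PF, with sums of 691 (PF), 391 (SAG), 2700 (COR) and 2920 FPKM (GP) and none at 0. The part of these markers, and of those higher in PF than in SAG, in the level of *Fst* was not tested.

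Between the fusing and the patent sutures, few of the 10 genes passed 3-fold. In PF vs SAG these were 2 of 10, *Chrd* and *Fst*, both higher in PF, compared with 15.1% of all genes tested in either direction. With a pseudocount of 0.1 in place of 1, *Bmpr1b* passed too, at -2.8, higher in SAG, and 27.7% of all genes tested passed. In PF vs COR none of the 10 passed, compared with 10.7%, although *Chrd*, *Fst* and *Chrdl1* were 1.33 to 1.46 higher in PF and *Nog* was 1.05 lower. With the pseudocount of 0.1, *Bmpr1b*, *Chrd* and *Fst* passed, compared with 23.6% of all genes tested. Between the patent sutures COR and SAG, *Chrdl1* alone passed, compared with 8.41% of all genes tested. Shares of 2 and 1 in 10, and of 3 in 10 with the pseudocount of 0.1, are near these backgrounds.

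Of the 10 genes, at any distance, 7 were higher in GP than in PF, 9 than in SAG and 6 than in COR. Over the 13998 genes tested these numbers were 6956, 6578 and 6677. Relative to *Gapdh*, *Bmpr1a* (-0.43), *Acvr1* (-0.12) and *Bambi* (-0.13) became lower in GP than in PF. GP vs PF gave 2 of 10 genes past 3-fold (*Bmpr1b* and *Grem1*, both higher in GP), compared with 11.2% of all genes tested. Both reached 1 FPKM in GP alone, so they were tested only through the library where they are highest. *Chrdl1*, at -1.36, was higher in PF and passed relative to *Gapdh* (-1.79) and after the GC correction (-1.81). Under these settings 13.6% of all genes tested and 10.7% of the corrected genes passed. GP vs SAG gave 4 of 10 (*Grem1*, *Chrd* and *Fst* higher in GP, *Chrdl1* higher in SAG), compared with 8.0%. GP vs COR gave 2 of 10 (*Grem1* and *Fst*, higher in GP), compared with 3.84%. The median log2 ratio of the 5 secreted antagonists was 1.36 for GP vs PF, 1.83 for GP vs SAG and 1.43 for GP vs COR, beside medians of -0.01 to 0.00 over all genes tested. These 3 comparisons share the GP library, as the comparisons of the sutures share theirs, so their counts are not independent.

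**Figure D3:**
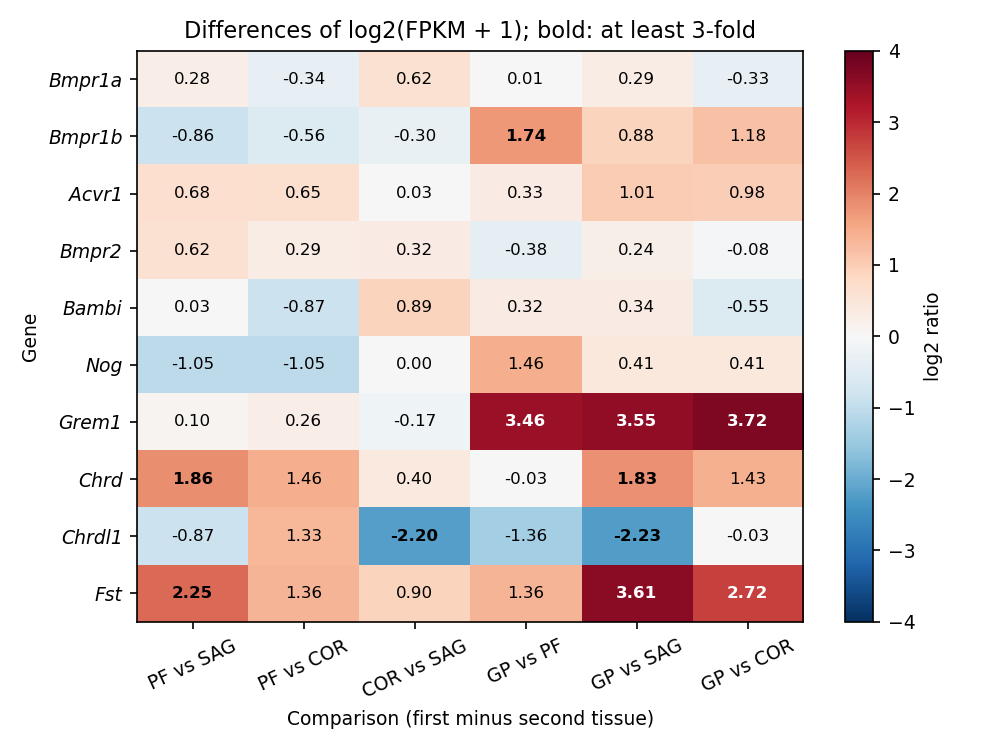
Differences of log2(FPKM + 1) for the 10 genes (rows) in the 6 comparisons (columns), first minus second tissue, with red for higher in the first and bold for at least 3-fold. The row of *Grem1* is 3.46 to 3.72 in the 3 GP columns and between -0.17 and 0.26 in the suture columns.

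The make-up of the antagonist transcripts differed more than their sum. The summed FPKM of the 5 antagonists was 41.3 (PF), 46.7 (SAG), 26.2 (COR) and 72.2 (GP), and that of the 4 receptors 39.4, 28.5, 38.1 and 45.4 in the same order. The antagonist sum was thus 1.05 times the receptor sum in PF, 1.64 times in SAG, 0.687 times in COR and 1.59 times in GP. These ratios cover the chosen genes only. The 15 other secreted BMP modulators listed summed to 1330 (PF), 937 (SAG), 682 (COR) and 807 FPKM (GP). Of these, 2 were at 0 in PF and 1 in COR. The 7 other receptors of the superfamily listed summed to 86.2, 47.1, 58.2 and 50.0 FPKM, with 1 at 0 in COR. *Chrdl1* made up 60.7% of the antagonist sum in SAG, and *Nog* made up 55.8% in COR. In PF, *Chrdl1* made up 36.3% and *Chrd* 29.3%. In GP, *Fst* (27.8%), *Nog* (27.3%) and *Grem1* (21.1%) came first, and *Grem1* made up from 0.823% to 1.17% in the sutures. Among the receptors, *Bmpr1a* and *Acvr1* together dominated in every library, with *Bmpr1a* at 42.6% to 64.6% and *Acvr1* at 26.8% to 46.3% of the receptor sum. These are sums of transcript levels, and proteins were not measured.

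**Figure D4:**
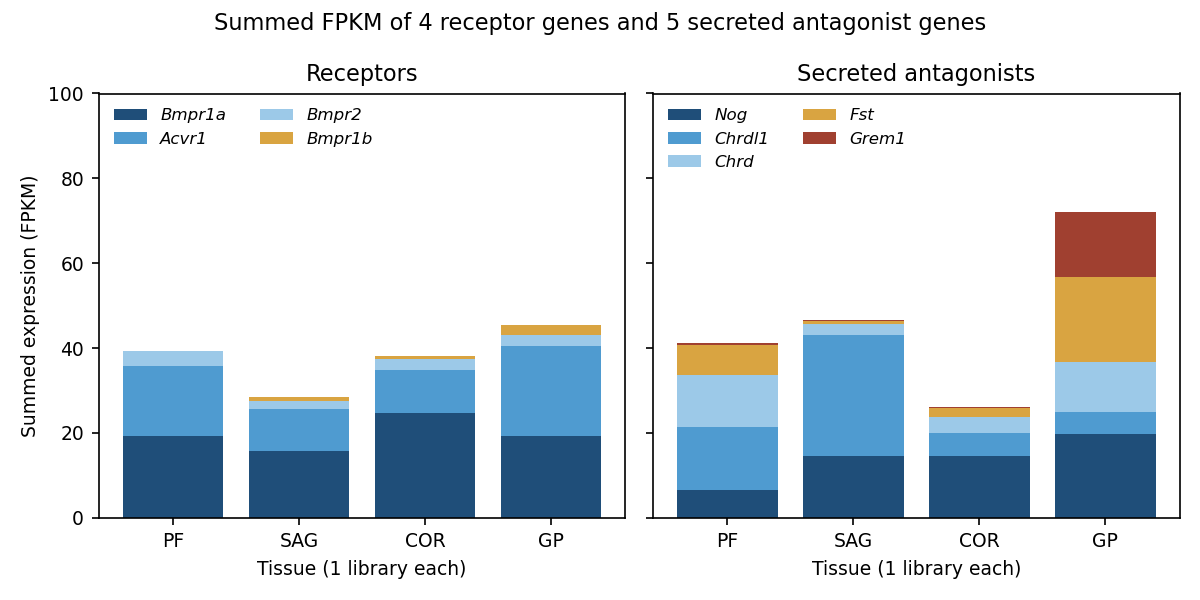
Stacked bars from 0 of the summed FPKM of 4 receptor genes (left) and 5 secreted antagonist genes (right) in each library, 1 bar per tissue and no error. The antagonist bar is lowest in COR (26.2) and highest in GP (72.2), and *Grem1* is visible in GP only.

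The other genes of the pathway were taken from a list of 56 genes, of which 48 reached 1 FPKM in at least 1 library. Past 3-fold were 9 of these 48 in PF vs SAG (15.1% of all genes tested), 3 in PF vs COR (10.7%), 9 in COR vs SAG (8.41%), 11 in GP vs PF (11.2%), 10 in GP vs SAG (8.0%) and 5 in GP vs COR (3.84%). Of the intracellular genes, none of the 3 receptor-regulated and common SMAD genes tested and none of the 4 inhibitory SMAD and SMAD ubiquitin ligase genes reached 3-fold in any comparison, and with 7 genes a count of 0 is near these backgrounds. *Smurf1* (1.34) and *Smad6* (1.13) were farther apart between the lowest and the highest library than the median gene, and *Smad9*, at 0.952 FPKM or less, was not tested. Of the ligand genes, 6 of 6 tested were at least 3-fold apart between the lowest and the highest library, compared with 24.7% of all genes tested.

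Among the other receptors, *Acvrl1*, which encodes the type I receptor ALK1 known from endothelium, was at 14.8 (PF), 1.98 (SAG), 4.30 (COR) and 3.64 FPKM (GP). It was the only 1 of 6 tested to pass 3-fold, by 2.41 for PF vs SAG. Of 6 endothelial markers none was at least 3-fold higher in PF than in another library. Their summed level was 4.41 FPKM in PF, 16.9 in SAG (14.9 of it *Kdr*), 2.18 in COR and 1.84 in GP, with none at 0. The co-receptor gene *Hfe2* (hemojuvelin) was at 5.88 FPKM in SAG, at 0.199 in COR and 0.359 in GP, and is listed at 0 in PF.

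Of the other secreted modulators, *Fstl3*, a follistatin-like gene, was at 34.9 (PF), 4.46 (SAG), 31.4 (COR) and 18.5 FPKM (GP). Like *Fst*, it was lowest in SAG. *Kcp* (kielin/chordin-like protein) was at 6.41 (PF), 1.06 (SAG), 1.39 (COR) and 0.507 FPKM (GP). *Tll1*, a protease of the family that cleaves chordin, was at 8.06 (PF), 2.11 (SAG), 0.717 (COR) and 3.48 FPKM (GP).

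Of the 6 ligand genes tested, 4 were highest in SAG: *Bmp4* at 73.5 FPKM, *Gdf5* at 48.2, *Bmp2* at 36.1 and *Bmp7* at 35.6. In contrast, *Bmp5* was highest in GP at 29.4 FPKM compared with 4.13 to 4.95 in the sutures. *Gdf5*, known for joint formation, was at 0.290 FPKM in PF, 2.17 in COR and 18.4 in GP. Among 9 known BMP target genes, *Id4* was at 257 FPKM in SAG and from 9.92 to 12.7 in the other libraries. *Id1* was also highest in SAG, at 320 FPKM compared with 94.5 (PF), 115 (COR) and 99.1 (GP). *Dlx5* ran the other way, at 22.6 (PF), 20.9 (SAG), 102 (COR) and 82.3 FPKM (GP). *Msx1* and *Msx2*, homeobox genes of the skull, were at 258 and 43.2 FPKM in PF, 175 and 54.4 in SAG, 94.4 and 22.1 in COR, and 15.9 and 2.13 in GP. In SAG the chondrocyte and choroid plexus markers given above were also higher, and their part in these levels was not tested.

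**Figure D5:**
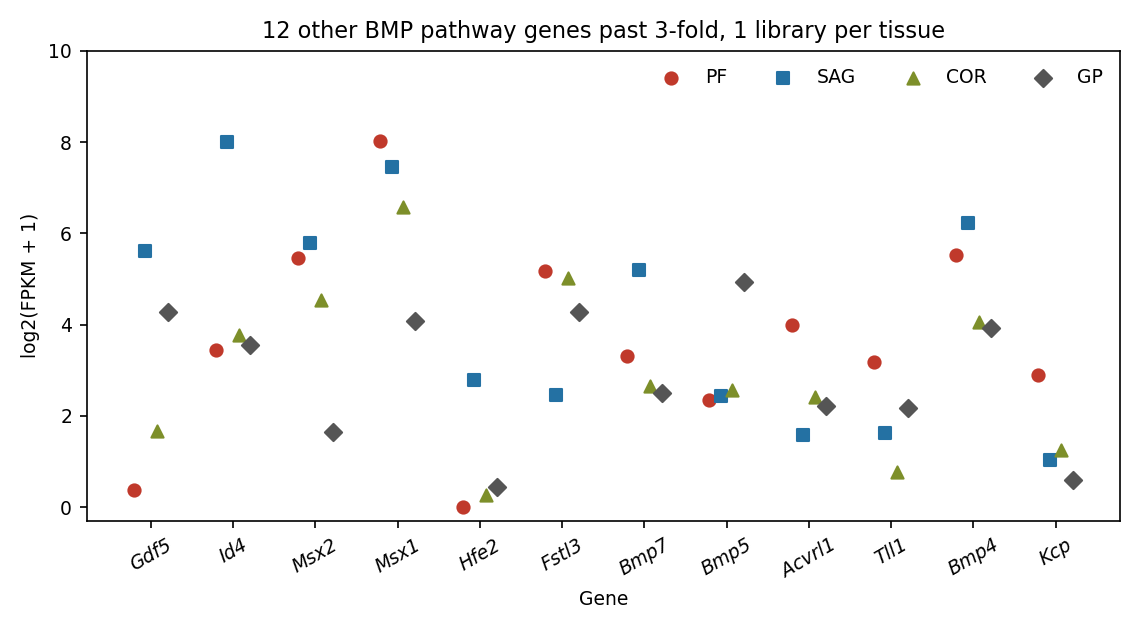
log2(FPKM + 1) of 12 other pathway genes, 1 point per library: the farthest apart among those past 3-fold in a suture comparison or between GP and all 3 sutures. *Sostdc1* (2.94 from COR to GP) met neither condition and is not drawn. SAG is the highest point for *Gdf5*, *Id4*, *Hfe2*, *Bmp7*, *Bmp4* and *Msx2*, PF for *Acvrl1*, *Tll1*, *Kcp*, *Fstl3* and *Msx1*, and GP for *Bmp5*.

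Genes with the most similar profile over the 4 libraries were sought for the 5 genes past 3-fold, by the Euclidean distance between mean-centred log2(FPKM + 1) values. The nearest to *Grem1* were *Ffar4* (distance 0.259) and *Hoxc10* (0.411), the latter a HOX gene of the hindlimb, and 5 of 13852 genes lay within 0.5. The nearest to *Fst* were *Crabp2* (0.394) and *Nov* (0.411), with 3 genes within 0.5. *Crabp2* was at 67.7 (PF), 11.0 (SAG), 31.9 (COR) and 177 FPKM (GP). It is also 1 of the 7 meningeal markers examined, whose summed level was 220, 165, 65.6 and 204 FPKM in PF, SAG, COR and GP. *Zic1* was at 0 in GP and *Slc6a13* at 0 in COR. The GP sum was mostly *Crabp2* itself (177 FPKM) with *Foxc1* (24.0 FPKM), and the other meningeal markers were at 1.66 FPKM or less in GP. The part of meningeal cells in the level of *Fst* was not tested. The nearest to *Chrd* were *Gm20748* (0.158) and *Atp2a3* (0.209), those to *Chrdl1* were *Fam216b* (0.107) and *Tox3* (0.123), and those to *Bmpr1b* were *Psma8* (0.145) and *B3galt2* (0.171). With 40 to 87 genes within 0.5 for these 3, a likeness over 4 libraries is common.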

How the data were processed

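RNA was measured by bulk RNA-seq in 4 libraries, 1 per tissue, grouped by the sample titles. Per the labels and the methods of the study, the authors mapped reads to mm9 with STAR 2.5.1b and ran Cuffdiff of Cufflinks 2.2.1, and they deposited FPKM per gene symbol. Library normalization within Cuffdiff and read numbers are not given in the sources used here, so no counting interval is given.

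Ratios between tissues are differences of log2(FPKM + 1) over genes that reached 1 FPKM in any library. Relative depth was read from the most frequent low value of FPKM multiplied by length in kilobases, over genes with 1 annotated transcript, and fragment numbers per gene are approximate. The 10 genes and all gene lists were chosen with earlier results of these data known. Genes named were the 10 members, the 12 pathway genes farthest apart among those past 3-fold in a suture comparison or between GP and all 3 sutures, the 2 nearest profiles of each member past 3-fold, and *Gapdh*. *Acvr2a*, *Acvr2b*, *Bmp2*, *Dlx5*, *Id1*, *Sostdc1*, the SMAD and *Smurf1* genes, single marker and matrix genes, *Thpo* and *Gm17110* fall outside this rule. They were named after their values were seen. Positions and lengths are those of GENCODE for mm9, and promoter windows are from RefSeq. The alternatives were another pseudocount, 3 scalings, 3 filters and a 2-fold limit, and, chosen after the data were seen, a loess correction for GC content (span 0.3). Python 3.11.15, numpy 2.4.6, pandas 2.3.3, statsmodels 0.14.6 and matplotlib 3.10.9 were used. The 3-fold calls were tested on simulated data built from higher-expressed genes only, so low genes were not covered. The depth estimate, the GC correction, the profile search and the promoter steps were not simulated.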

Additional observations from a re-analysis of the deposited data

How the results depend on the processing

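No paired analysis was possible because every tissue is represented by 1 library, and so no library could be left out of a group. Of 60 log2 ratios (10 genes in 6 comparisons), none that passed 3-fold changed sign under a pseudocount of 0.1, median-ratio scaling, quantile normalization, values relative to *Gapdh* or the GC correction, which was chosen after the data were seen. Median-ratio scaling and quantile normalization left each of the 7 counts of genes past 3-fold as reported, and so did leaving out the filter. With a pseudocount of 0.1, 3 genes passed in PF vs SAG (*Bmpr1b* added), 3 in PF vs COR (in place of 0) and 4 in GP vs COR (in place of 2). Of all genes tested, 27.7%, 23.6% and 8.74% passed in the same comparisons. *Gapdh* itself was 0.53 lower in PF than in SAG on the log2 scale (ratio -0.53) and 0.47 higher in GP than in PF. Relative to *Gapdh*, 2 passed in PF vs COR (13.0% of all genes tested) and 3 in GP vs PF (13.6%). With genes under 5 FPKM in all libraries left out, 1 passed in GP vs PF, compared with 11.1% of all genes kept. When each library had to reach 1 FPKM, which leaves 7 of the 10 genes, 1 passed in PF vs SAG, 0 in GP vs PF, 2 in GP vs SAG, 0 in GP vs COR and 2 from the lowest to the highest library, because *Grem1*, *Fst* and *Bmpr1b* are then not tested. In the same order, 8.23%, 5.43%, 4.29%, 2.21% and 14.9% of all genes kept passed. With a limit of 2-fold, 4 passed in PF vs COR, 5 in GP vs PF and 4 in GP vs COR, compared with 27.0%, 27.3% and 8.68% of all genes tested. After the GC correction 2 passed in PF vs COR (*Chrdl1* and *Fst*). In PF vs SAG the 2 were then *Nog* and *Fst* in place of *Chrd* and *Fst*, and in GP vs PF the 3 were *Nog*, *Grem1* and *Chrdl1*. Of the corrected genes, 10.3%, 14.2% and 10.7% passed in these comparisons, and the cause was not tested. The shallow PF library limits the precision of low values there, *Bmpr1b* most of all.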
